A study of Homo sapiens with 4 samples.

Results

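Death receptor signalling was described over 10 genes in Hut78, an established cell line grown from a cutaneous T-cell lymphoma, a cancer of T cells that home to skin. The genes were the ligands FASLG and TNFSF10, the receptors FAS, TNFRSF10A, TNFRSF10B and TNFRSF1A, and the intracellular adaptors and regulators FADD, TRADD, CFLAR and RIPK1. They were found by gene symbol, all 10 of 10 were measured, and they belong to 25847 genes compared on the same arrays. Where a symbol had several transcript clusters (the array's unit for a gene or a part of one), the cluster with the highest mean stood for the gene. Total RNA was hybridised to 4 Affymetrix Human Transcriptome Arrays 2.0. There were 2 arrays of Hut78 cells kept in 50 µM ribavirin for 120 h, and 2 arrays of Hut78 cells without treatment, called control. Ribavirin is a guanosine analogue used as an antiviral drug. All cells grew in RPMI medium with 10% fetal bovine serum, and neither a culture time for control cells nor separate cultures are labelled, so p-values measure only the spread between these arrays, which may be technical.

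Death receptors are members of the tumour necrosis factor (TNF) receptor family that carry a death domain inside the cell. When Fas ligand or TRAIL (the product of TNFSF10) binds, the receptor gathers the adaptor FADD, which recruits caspase-8 and can start apoptosis, while CFLAR makes the FLIP proteins that compete with caspase-8 for FADD. TNF receptor 1 (TNFRSF1A) instead gathers TRADD and the kinase RIPK1 first and mainly signals to NF-kappaB, with cell death as a second outcome. In T cells the Fas system is known for removing activated cells after an immune response.

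The values were log2 signals, 1 unit being a doubling of the deposited signal, and the highest value was 19.93. How the processing method, named SST-RMA, scaled them is not stated. Fold changes below are therefore ratios of this signal and may not equal ratios of RNA. Across genes, which are no independent replicates, Pearson r was 0.998 within each group and 0.990 to 0.991 for a ribavirin with a control array. The number of arrays limits the precision. The highest of 23 background probe sets averaged 4.95 on the ribavirin arrays and 5.20 on the control arrays, and a group mean at or below that level was taken to lie in the background range. Of the T-cell markers, CD3D had mean signals of 11.41 in ribavirin and 11.84 in control cells and CD3E of 10.88 and 11.11, far above background, while CD2 and CD28 lay in the background range in both groups. All 5 markers of NK and CD8 T cells and 4 of 6 myeloid markers lay in the background range in both groups, whereas CD79A and CD79B of the B-cell list and EPCAM, CDH1 and KRT8 of the epithelial list lay above it. Of 10 T-cell markers measured, 6 fell with ribavirin and 4 did not pass (limma adjusted p under 0.05). By the same test 5.88% of all genes fell and 9.34% rose. Among genes whose mean over the 4 arrays was above the background probe sets, 11.1% fell and 21.7% rose. Group means of the T-cell markers ran from 3.06 to 11.41 in ribavirin and 3.09 to 11.84 in control cells, with a median log2 change of -0.64. The T-cell falls were CD5 (log2 change -2.39, rank 6 among all genes by fall), CD3G (-1.16), LCK (-1.03), CD4 (-1.02), CD7 (-0.86) and CD3D (-0.43). With ribavirin CD4 and CD7 lay in the background range, at means of 4.54 and 4.95, against 5.56 and 5.81 in control. The size of these falls is thus uncertain. In the other lists 2 B-cell, 3 epithelial and 1 fibroblast marker fell and 1 myeloid marker, CD68, rose. Of these, the fibroblast marker COL1A1 (means of 3.95 with ribavirin and 4.32 in control) lay in the background range in both groups. So did the epithelial marker KRT18 (4.65 and 5.13), while CD68 (5.54 and 4.89) lay in that range in control only. The part of these shifts in the results below was not tested. In bulk RNA of the Hut78 line, fewer cells expressing a marker and less of its RNA per cell cannot be told apart.

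With ribavirin, 5 of the 10 death receptor genes rose, 1 fell and 4 did not pass the test (limma, Benjamini-Hochberg adjusted p under 0.05 over all genes). The rises were the ligand TNFSF10, the receptors FAS, TNFRSF10A and TNFRSF10B, and the kinase RIPK1, and the fall was the receptor TNFRSF1A. Over all genes 15.2% passed, 9.34% rising and 5.88% falling. Among the 10221 genes whose mean over the 4 arrays was above the background probe sets, 32.9% passed, 21.7% rising and 11.1% falling. The median log2 change of the 10 genes was 0.32, against -0.05 over all genes and 0.07 over those above background.

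**Figure D1:**
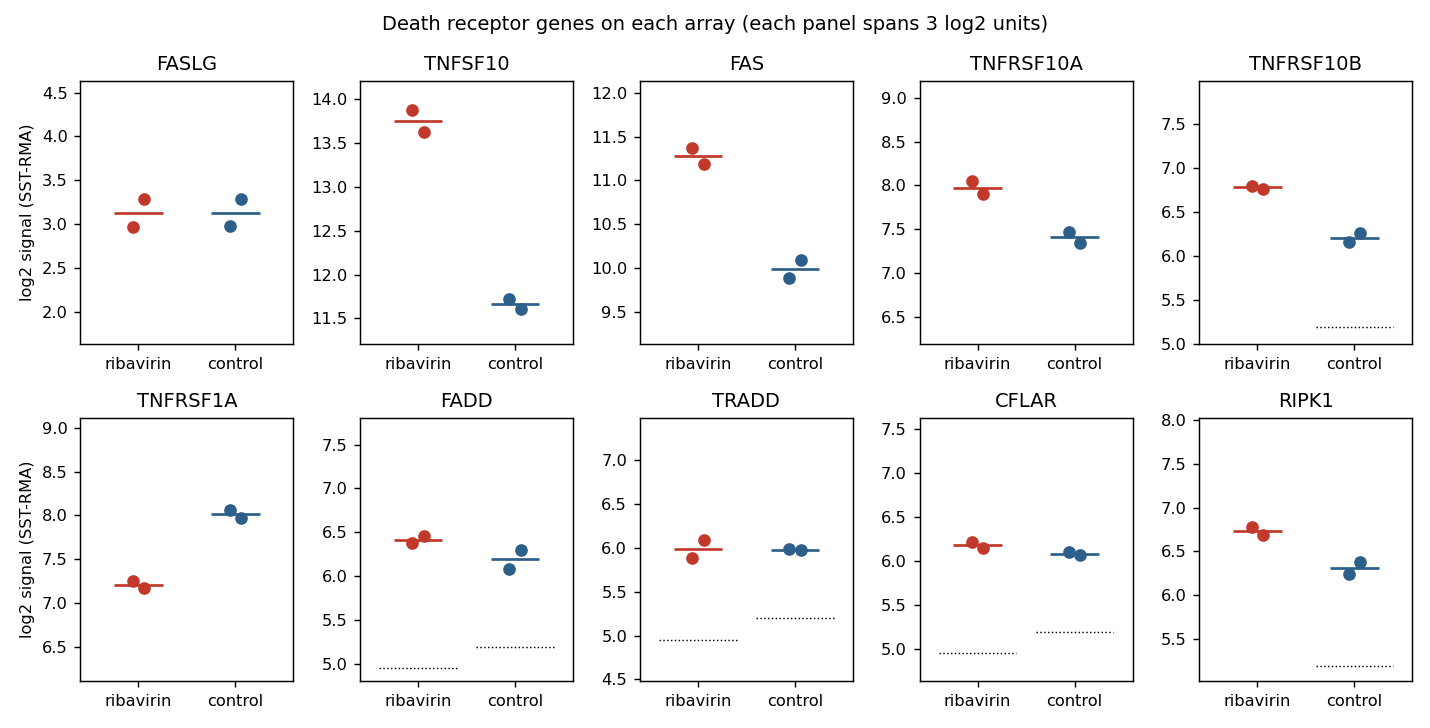
Log2 signal of each death receptor gene on the 2 ribavirin arrays (red) and the 2 control arrays (blue), with group means as lines. Dotted lines mark the highest background probe set of each group where it lies within a panel. TNFSF10 and FAS show the widest gaps, TNFRSF1A is the 1 gene with both ribavirin arrays below both controls, and FASLG lies wholly below the background level, which is outside its panel.

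Of the ligands, TNFSF10 changed most among the 10 genes. TNFSF10 encodes TRAIL, a ligand that T cells carry on their surface or release (transcript cluster TC03003211.hg.1). Its signal was 13.88 and 13.62 on the ribavirin arrays and 11.72 and 11.61 on the control arrays. The groups were 1.90 log2 units apart at their closest, while the arrays of a group differed by far less. The pooled SD of 0.14 was above the median of 0.08 over all genes. Means were 13.75 ± 0.18 with ribavirin and 11.66 ± 0.08 in control (SD, n = 2 each), a log2 change of 2.09 (95% interval 1.80 to 2.37) or 4.24-fold, with a limma adjusted p of 0.00202. TNFSF10 ranked 32 among all 25847 genes by rise.

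FASLG encodes Fas ligand, which cytotoxic and activated T cells use to kill target cells (TC01001506.hg.1). Its signal was 2.97 and 3.29 on the ribavirin arrays and 2.97 and 3.29 on the control arrays. All 4 values lay in the background range and the groups overlapped fully. The log2 change was -0.0014, with a 95% interval of -0.39 to 0.39 (limma adjusted p = 0.997). Since the signal was at background, a change of a low FASLG level was not detectable on these arrays.

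The promoter windows of the ligands and of RIPK1 are shown because each holds the letters TTTC, 2 bases of any kind and TTTC again, a core of the interferon-stimulated response element, and because TNFSF10 and RIPK1 rose while FASLG stayed at background. The sequences are from RefSeq (GRCh38.p14), run from 250 bases before to 50 bases after the annotated start, and are written 5′ to 3′ on the gene's strand. Capitals mark matches to the motifs searched.
TNFSF10, chr3:172523381-172523680, minus strand: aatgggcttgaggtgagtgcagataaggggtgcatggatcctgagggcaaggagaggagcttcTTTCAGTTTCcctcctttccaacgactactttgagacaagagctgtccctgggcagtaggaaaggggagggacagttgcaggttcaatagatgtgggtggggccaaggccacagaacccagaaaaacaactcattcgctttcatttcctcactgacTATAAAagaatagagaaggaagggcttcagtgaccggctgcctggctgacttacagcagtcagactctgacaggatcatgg
FASLG, chr1:172658853-172659152, plus strand: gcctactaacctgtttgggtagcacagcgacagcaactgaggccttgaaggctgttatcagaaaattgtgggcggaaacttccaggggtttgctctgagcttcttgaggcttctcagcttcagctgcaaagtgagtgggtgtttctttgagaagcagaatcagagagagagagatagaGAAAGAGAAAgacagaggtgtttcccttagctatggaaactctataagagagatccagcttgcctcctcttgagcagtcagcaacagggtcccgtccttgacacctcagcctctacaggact
RIPK1, chr6:3068128-3068427, plus strand: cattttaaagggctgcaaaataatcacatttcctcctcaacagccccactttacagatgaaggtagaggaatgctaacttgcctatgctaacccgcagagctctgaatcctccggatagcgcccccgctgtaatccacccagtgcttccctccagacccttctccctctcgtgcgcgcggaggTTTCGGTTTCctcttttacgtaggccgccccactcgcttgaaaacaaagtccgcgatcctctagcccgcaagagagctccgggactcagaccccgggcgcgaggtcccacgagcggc

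Motifs were searched on both strands in 14 windows of 7 genes (FASLG, TNFSF10, FAS, TNFRSF1A, FADD, CFLAR and RIPK1). In TNFSF10 the response element match began at position -187 from the start, and a TATAAA match, the TATA box letters, at -31. In FASLG the match lay on the opposite strand and its first printed base was at -72. In RIPK1 it began at -67, and the same match lay in an overlapping second window, while a further RIPK1 window held TATAAA at -30. None of the 14 windows held TTCNNNGAA (the GAS element), GGG with 2 bases of any kind and TTTCC (NF-kappaB) or TGACTCA (AP-1), and none of the windows of FAS, TNFRSF1A, FADD and CFLAR held any of the 5 motifs. Over all 35116 RefSeq windows of this length, 3.57% held the response element letters, 7.66% TTCNNNGAA, 1.91% the NF-kappaB letters, 4.95% TGACTCA and 11.5% TATAAA. The letters occurred in windows of genes that rose and of FASLG, which was not above background.

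Of the 4 receptors, FAS, TNFRSF10A and TNFRSF10B rose and TNFRSF1A fell, and none of them was in the background range. FAS, also called CD95, is the receptor of Fas ligand (TC10002196.hg.1). Its signal was 11.37 and 11.19 on the ribavirin arrays and 9.88 and 10.10 on the control arrays. Both ribavirin arrays were higher than both controls, with 1.09 log2 units between the nearest ones. The log2 change was 1.29 (95% interval 1.01 to 1.57), or 2.44-fold, with a limma adjusted p of 0.00406, and FAS ranked 180 among all genes by rise.

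TNFRSF10A and TNFRSF10B encode TRAIL receptors 1 and 2, the pair of TRAIL receptors with a working death domain. TNFRSF10A (TC08001052.hg.1) had signals of 8.05 and 7.90 with ribavirin and 7.47 and 7.35 in control. TNFRSF10B (TC08002257.hg.1) had 6.80 and 6.77 with ribavirin and 6.16 and 6.26 in control. In both genes the groups were apart, by 0.43 log2 units for TNFRSF10A and 0.51 for TNFRSF10B. The changes were alike in size, 1.48-fold for TNFRSF10A (log2 change 0.57, 95% interval 0.33 to 0.80, limma adjusted p = 0.0173) and 1.49-fold for TNFRSF10B (log2 change 0.57, 95% interval 0.38 to 0.77, limma adjusted p = 0.0102). The TRAIL receptors are paralogues, so probes may share sequence. The decoy receptors TNFRSF10C, named after its value was seen, and TNFRSF10D, which bind TRAIL without passing on a death signal, lay in the background range in both groups, at 3.89 with ribavirin and 3.97 in control for TNFRSF10C and at 4.50 and 4.64 for TNFRSF10D.

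TNFRSF1A, the main receptor of TNF and lymphotoxin alpha (TC12001135.hg.1), was the 1 gene of the 10 that fell. Its signal was 7.25 and 7.17 on the ribavirin arrays and 8.06 and 7.97 on the control arrays. Both ribavirin arrays were lower than both controls, by 0.72 log2 units at the closest. The log2 change was -0.80 (95% interval -1.004 to -0.61), 0.572 times the control level, with a limma adjusted p of 0.00515. The intervals of TNFRSF1A and of the 3 other receptors lay on opposite sides of 0.

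**Figure D2:**
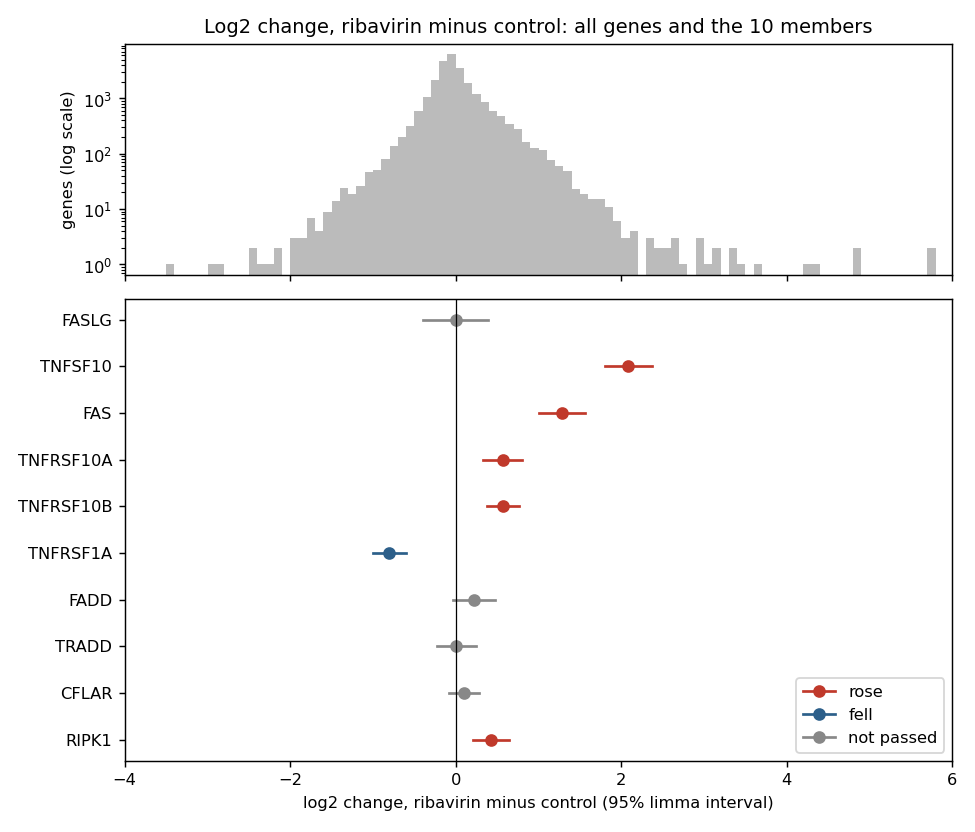
Top, histogram of the log2 change (ribavirin minus control) of all 25847 genes, with a log count axis. Bottom, the change of each death receptor gene with its 95% interval from limma, coloured by whether it rose, fell or did not pass at an adjusted p of 0.05. TNFSF10 at 2.09 and FAS at 1.29 lie in the upper tail, and the interval of TNFRSF1A ends at -0.61.

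Of the adaptors and regulators only RIPK1 passed the test among the 4 listed. RIPK1, the kinase that links TNF receptor 1 to NF-kappaB and, in other settings, to death (TC06000023.hg.1), had signals of 6.78 and 6.69 with ribavirin and 6.24 and 6.38 in control. The groups were 0.31 log2 units apart. The log2 change was 0.42 (95% interval 0.21 to 0.64), or 1.34-fold, with a limma adjusted p of 0.0324. With quantile normalization done anew the change was 0.32 and the call ended (limma adjusted p = 0.0681).

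FADD, the adaptor shared by FAS and the TRAIL receptors (TC11000723.hg.1), had signals of 6.38 and 6.45 with ribavirin and 6.09 and 6.30 in control. Both ribavirin arrays were above both controls, but by 0.08 log2 units, less than the SD of 0.15 between the control arrays, and the change of 0.22 did not pass (95% interval -0.03 to 0.47, limma adjusted p = 0.213). CFLAR, the FLIP gene (TC02001174.hg.1), had signals of 6.22 and 6.14 with ribavirin and 6.10 and 6.06 in control. Its groups were apart by 0.04 log2 units, and the change of 0.10 did not pass (95% interval -0.09 to 0.28, limma adjusted p = 0.428). CFLAR had 1 cluster, so its long and short protein forms could not be told apart. TRADD, the first adaptor of TNF receptor 1 (TC16001180.hg.1), had signals of 5.89 and 6.09 with ribavirin and 5.98 and 5.97 in control. Its control values lay inside the range of the ribavirin values, and the change was 0.01 (95% interval -0.23 to 0.24, limma adjusted p = 0.967). For these 3 genes a change beyond the interval ends, 0.47 for FADD, 0.28 for CFLAR and 0.24 for TRADD, lies outside the 95% intervals, while smaller rises do not.

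Counted by arrays alone, 7 of the 10 genes had both ribavirin arrays above both controls and 1 had both below. Over all genes the groups did not overlap in 59.9%, with 24.1% higher and 35.8% lower with ribavirin, and among genes above background in 76.5%, with 45.9% higher and 30.6% lower. An exact permutation test of a single gene with 2 arrays against 2 cannot give a two-sided p below 0.333, so no such test was used for calls. The spread between replicate arrays ranged from a pooled SD of 0.04 for CFLAR to 0.22 for FASLG, beside a median of 0.08 over all genes.

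The calls rested on all 4 arrays. When control replicate 1 or control replicate 2 was left out, none of the 10 genes passed, with limma adjusted p between 0.0554 and 0.144 in the first case and between 0.0517 and 0.113 in the second for the 6 genes called with all arrays. In these 2 fits 26 and 27 of all genes passed the adjusted threshold. At an unadjusted p under 0.05 there were 6 and 7 of the 10 genes, beside 6457 and 5975 of all 25847 genes. Without ribavirin replicate 1, TNFSF10, FAS and TNFRSF1A passed, and without ribavirin replicate 2 also TNFRSF10A. The size of the changes moved little, TNFSF10 lying between 1.96 and 2.21, FAS between 1.18 and 1.39 and TNFRSF1A between -0.85 and -0.76 over the 4 fits.

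**Figure D3:**
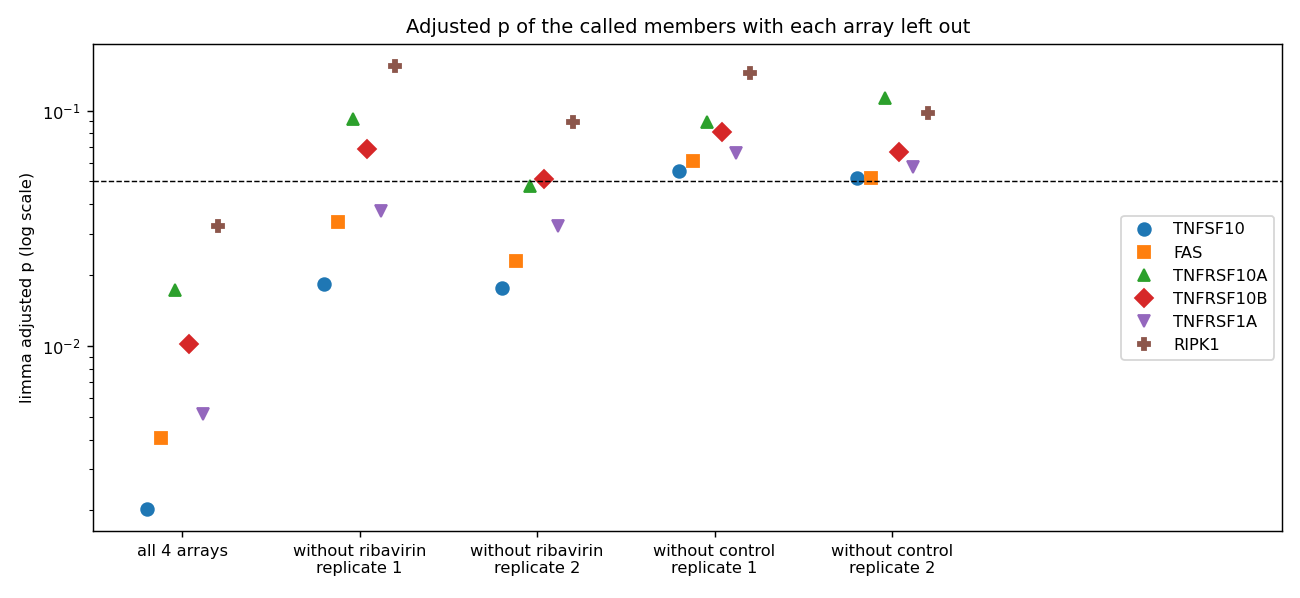
Limma adjusted p, on a log axis, of the 6 death receptor genes called with all 4 arrays, and of the same genes with each array left out in turn. The dashed line is the threshold of 0.05. With either control array left out every gene lies above the line. The lowest values are 0.0554 for TNFSF10 without control replicate 1, and 0.0517 for both TNFSF10 and FAS without control replicate 2.

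Further transcript clusters of the same symbols gave a second reading for TNFSF10, FAS and TNFRSF10B. Every cluster was therefore also fitted on its own, a choice made after the data were seen, in which 2.80% of 67528 clusters passed. The second TNFSF10 cluster (TC03002006.hg.1) had signals of 9.47 and 9.26 with ribavirin and 8.12 and 7.79 in control. It rose too, by 1.41 (95% interval 1.005 to 1.82, limma adjusted p = 0.0322), less than the 2.09 of the brighter cluster. The second FAS cluster (TC10002942.hg.1) had 7.47 and 7.36 with ribavirin and 6.58 and 6.70 in control, a rise of 0.78 (95% interval 0.51 to 1.05, limma adjusted p = 0.0415). The difference in size between clusters of a gene was not tested.

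The third FAS cluster lay in the background range, at means of 3.44 with ribavirin and 3.53 in control, and so did the antisense gene FAS-AS1, at 3.24 and 3.17. TNFRSF10B had 3 further clusters, all dimmer. The brightest of these (TC08001049.hg.1) had 5.99 and 5.87 with ribavirin and 5.59 and 5.63 in control, a change of 0.32 that did not pass (95% interval 0.07 to 0.57, limma adjusted p = 0.182), and the others changed by 0.17 and 0.21 without passing. In this fit over all clusters, TNFSF10, FAS and TNFRSF1A kept their calls, whereas TNFRSF10A, TNFRSF10B and RIPK1 did not (limma adjusted p = 0.0789, 0.0587 and 0.123). Averaging the clusters of a gene gave a TNFRSF10B change of 0.32, which did not pass either (limma adjusted p = 0.0516). For FAS the average, which includes the cluster in the background range, changed by 0.66 in place of 1.29 and still passed (limma adjusted p = 0.0211), and for TNFSF10 it changed by 1.75 in place of 2.09 (limma adjusted p = 0.00202).

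**Figure D4:**
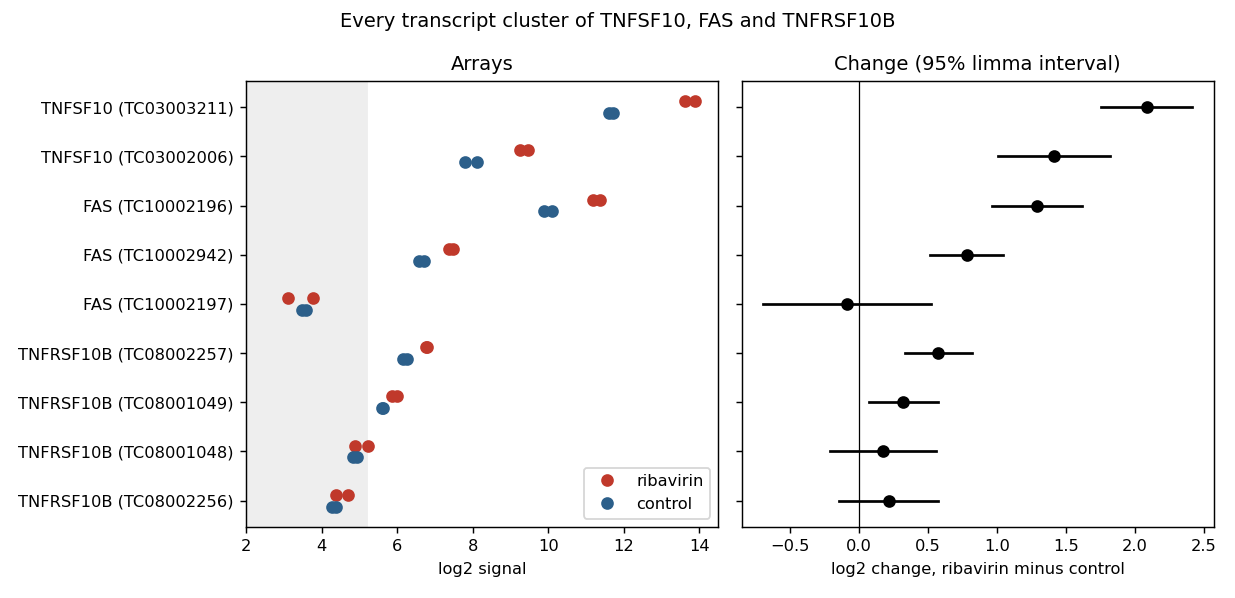
Left, log2 signal of every transcript cluster of TNFSF10, FAS and TNFRSF10B on the ribavirin arrays (red) and control arrays (blue), with the control background range shaded. Right, the log2 change of each cluster with its 95% interval from the fit over all clusters. Both TNFSF10 clusters and both brighter FAS clusters lie to the right of 0. Clusters whose control mean lies inside the shaded range have intervals that include 0.

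Of 59 other genes of the pathway, 13 rose (22%), 6 fell and 40 did not pass, with a median log2 change of 0.01. Over all genes 9.34% rose and 5.88% fell. Of the 59, 15 lay in the background range in both groups and 44 had a mean over the 4 arrays above it. The 13 rises were 29.5% of these 44 and the 6 falls 13.6%, beside 21.7% and 11.1% among all genes above background, a difference that was not tested. With quantile normalization the split was 10 up and 9 down, and with each array centred on its median 14 up and 4 down. Over all genes 61.3% of calls were rises, 49.3% with quantile normalization and 73.7% with median centring. Without either control array 0 of the 59 passed in limma (20 and 27 at an unadjusted p under 0.05, beside the same 6457 and 5975 of all genes), without ribavirin replicate 1 there were 4 and without ribavirin replicate 2 there were 10.

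Of 6 other ligands, 1 rose and 1 fell, beside 9.34% rising and 5.88% falling over all genes. LTA, lymphotoxin alpha, which binds TNFRSF1A as TNF does, had signals of 13.44 and 13.00 with ribavirin and 12.54 and 12.15 in control, a rise of 0.87 (SE 0.19, limma adjusted p = 0.0423). TNFSF14, the ligand LIGHT, had 5.56 and 5.48 with ribavirin and 6.28 and 6.12 in control, a fall of 0.68 on the log2 scale (a change of -0.68, SE 0.09, limma adjusted p = 0.00935). TNF itself lay in the background range, at means of 3.98 with ribavirin and 4.27 in control, and did not pass (limma adjusted p = 0.115). TNFSF12, the ligand TWEAK, was in that range too, at 4.74 and 4.81.

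Of 10 other receptors, TNFRSF1B fell, 9 did not pass, and 8 lay in the background range in both groups. Falls made up 5.88% of all genes. TNFRSF1B, the second TNF receptor, which has no death domain, had signals of 7.34 and 7.36 with ribavirin and 8.76 and 8.28 in control. Its change of -1.17 (95% interval -1.58 to -0.76, limma adjusted p = 0.0118) went the same way as that of TNFRSF1A. The death receptor TNFRSF25 (4.20 with ribavirin and 4.43 in control), the soluble decoy TNFRSF6B (5.07 and 5.27) and TNFRSF10D did not pass.

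Among 30 partners of the signalling complexes 10 rose (33.3%), 3 fell (10%) and 17 did not pass. The shares were 9.34% and 5.88% over all genes, and 21.7% and 11.1% among those above background. The difference from these shares was not tested. TRAF1, an adaptor of TNF receptor complexes, had 10.51 and 10.67 with ribavirin and 9.48 and 9.32 in control, a rise of 1.19 (SE 0.10, limma adjusted p = 0.00405). TNFAIP3, the A20 ubiquitin editor that limits NF-kappaB signalling, had 16.31 and 16.32 with ribavirin and 15.56 and 15.50 in control, a rise of 0.79. IKBKB, a kinase of the IKK complex, rose by 0.72 to means of 8.07 with ribavirin against 7.35 in control, and RBCK1, a subunit of the linear ubiquitin ligase, by 0.62 to 7.46 against 6.84.

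Other genes of this group were picked for naming after their values were seen. The inhibitors of apoptosis BIRC2 and BIRC3, ubiquitin ligases that act on RIPK1, had means of 8.23 and 11.35 with ribavirin and 7.42 and 10.19 in control. The rises were 0.81 (95% interval 0.56 to 1.07, limma adjusted p = 0.00893) and 1.17 (95% interval 0.59 to 1.75, limma adjusted p = 0.0297). The ribavirin arrays of BIRC3 differed widely, at 11.70 and 11.01. The 3 falls were TNIP1, which binds A20 (-0.78), DAXX, first described as a Fas-binding protein (-0.48), and MLKL, the effector of necroptosis (-0.50). CASP8, the initiator caspase of both receptor pathways, had signals of 8.96 and 8.73 with ribavirin and 8.65 and 8.59 in control, and its change of 0.23 did not pass (95% interval -0.03 to 0.48, limma adjusted p = 0.215). Its relative CASP10 changed by 0.01, at means of 5.10 with ribavirin and 5.09 in control. RIPK3, the partner of RIPK1 in necroptosis, lay in the background range in both groups.

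Of 13 executioners and genes of the mitochondrial arm, 2 rose (15.4%), 1 fell (7.69%) and 10 did not pass. Among all genes above background 21.7% rose and 11.1% fell. CYCS, cytochrome c, a gene with processed pseudogenes whose sequence its probes may share, had 12.87 and 12.87 with ribavirin and 12.13 and 12.29 in control, a rise of 0.66 (SE 0.08, limma adjusted p = 0.00897). XIAP, which inhibits caspases, had 6.83 and 6.61 with ribavirin and 5.92 and 6.04 in control, a rise of 0.74. DFFA, the inhibitor of the apoptotic nuclease, fell by 0.38 on the log2 scale to 9.86 with ribavirin, against 10.24 in control. BAX, a pore-forming protein of the mitochondrial outer membrane, had 8.23 and 8.31 with ribavirin and 8.66 and 8.52 in control and did not pass (limma adjusted p = 0.0679). BID, the protein that links caspase-8 to mitochondria and was named after its value was seen, had means of 7.11 with ribavirin and 7.42 in control and did not pass (limma adjusted p = 0.0897).

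**Figure D5:**
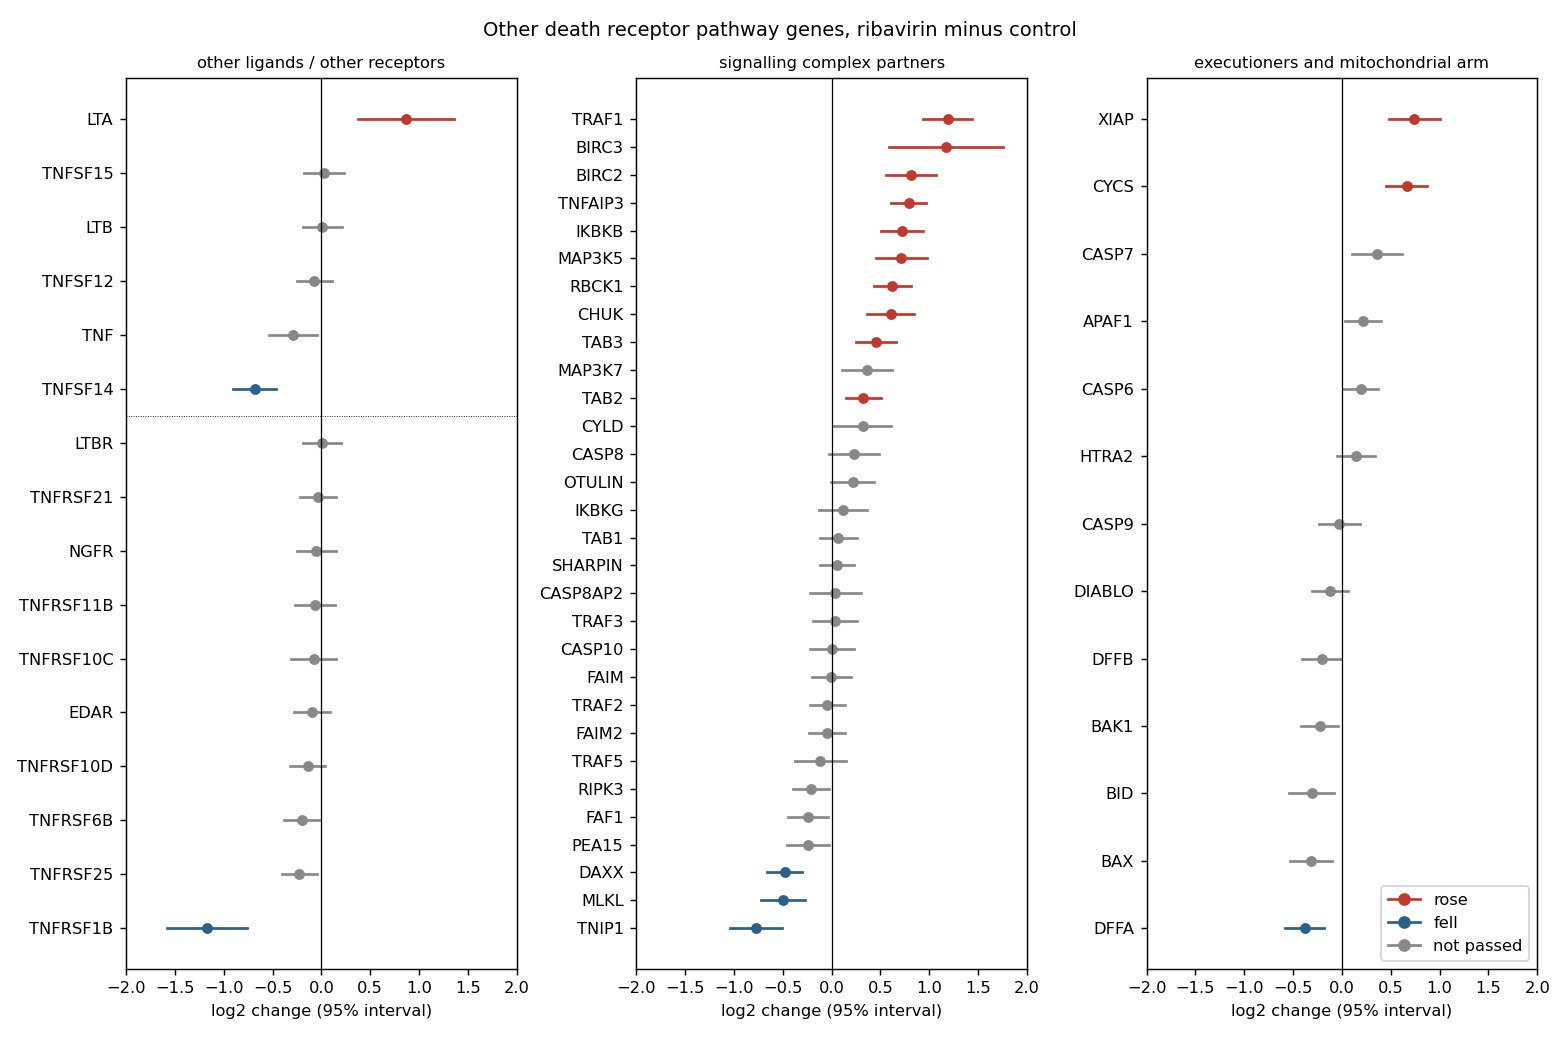
Log2 change (ribavirin minus control) of the 59 other pathway genes with 95% intervals from limma, ordered by size within each group and coloured by whether the gene rose, fell or did not pass. A dotted line parts ligands (above) from receptors (below) in the left panel. TRAF1 at 1.19 and BIRC3 at 1.17 are the highest and TNFRSF1B at -1.17 is the lowest.

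The genes most like TNFSF10 and FAS across the 4 arrays were found by the distance between values centred on each gene's control mean, over all genes with a current symbol. Nearest to TNFSF10 were KLF6, HS3ST3B1 and LAX1, at distances of 0.23, 0.24 and 0.26 log2 units and with changes of 1.96, 2.08 and 1.91. Nearest to FAS were MAN1A1, REEP3 and CMTM6, at distances of 0.06, 0.06 and 0.09 and with changes of 1.30, 1.27 and 1.25. With 4 arrays in 2 groups, the distance mostly reads the size of the change.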

How the data were processed

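Total RNA, extracted with Trizol, was amplified and biotin-labelled from 100 ng with a kit made for fixed tissue, per the labels' protocols. The authors deposited log2 values, 1 for each probe set, and the table's name gives SST-RMA as the method. Affymetrix Expression Console and RMA were used, per the submitters' processing notes, and the design text adds the Exon Array Computational Tool. Versions, filters and the effect of SST on the scale are not stated there. Such processing can alter the size of changes, near background and elsewhere. Whether it compressed or stretched them was not tested. A second deposited table held the same values (largest difference 0).

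Of 67528 transcript clusters, 33444 carried 1 symbol, giving 25847 genes. Differences between ribavirin and control were tested with limma 3.58.1 (R 4.3.3; lmFit, eBayes and no covariates), two-sided, with Benjamini-Hochberg adjustment over all genes, after tests on simulated data. Groups came from sample titles. Members, lists and rules were chosen with earlier results of these data known. Named were all 10 members and, per group of other pathway genes, up to 4 with the smallest p, plus genes marked as named after their values were seen. Of the listed genes, RNF31 and the T-cell markers TRAC and TRBC1 were not analysed here, and another is not reported here. Promoter windows are RefSeq GRCh38.p14 sequences, and those of TNFRSF10A and TNFRSF10B were not used here. Alternatives were an intensity trend, robust moderation, quantile normalization, median centring, dim genes left out, clusters averaged, a block for array number, adjusted p under 0.1 or 0.01, each array left out, and every cluster fitted.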

Additional observations from a re-analysis of the deposited data

How the results depend on the processing

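All 6 called members (of 10) passed with an intensity trend, robust moderation, median centring, dim genes left out and a threshold of 0.1. The count was 5 with quantile normalization, 5 with clusters averaged, and 3 at a threshold of 0.01, where 1314 of all genes and 7 other pathway genes passed. With each array left out in turn it ranged from 0 to 4, with 26 to 2001 over all genes and 0 to 10 among other pathway genes, and these fits take a lone array to vary as the other group does. The members' median log2 change was 0.22 with quantile normalization, 0.39 with median centring, 0.42 with dim genes left out (9 members), 0.27 with clusters averaged, and 0.24 to 0.41 over the 4 fits without 1 array. FASLG had changes of 0.0747 with quantile normalization, 0.0632 with median centring and -0.16 to 0.16 without 1 array, and TRADD had -0.0764 with quantile normalization and -0.0919 to 0.11 without 1 array, signs that differ from those with all arrays while neither passed. The cause of these moves was not tested. The array number was tried as a block, though no label ties same-numbered arrays, and their deviations correlated at 0.05. With the replicate block 5 members passed (RIPK1 adjusted p = 0.0593), with 3340 of all genes and 18 other pathway genes. Signal near background limits FASLG and the dim receptors.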

Other observations

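The FASLG signal of ribavirin replicate 2 and that of control replicate 2 were the same number in the deposited table, 3.29 after rounding, and 46 of 25847 genes had equal values on these 2 arrays. The promoter windows of TNFSF10 and FASLG held 3 CG dinucleotides each and that of TNFRSF1A 4, against 14 to 22 in the 3 FAS windows, 21, 36 and 37 in the 3 RIPK1 windows, 36 in the FADD window, 0, 1, 21 and 22 in the 4 CFLAR windows, and a median of 14 over all 35116 windows.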
